A study of Mus musculus with 6 samples.

Results

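F9 cells are a mouse teratocarcinoma line that stays undifferentiated in ordinary culture and turns towards primitive endoderm, an early extra-embryonic tissue, when retinoic acid (RA) is added. The comparison described here is the RA response of F9 cells that express a short hairpin named shCtbp2, against the corepressor gene Ctbp2. Library shCtbp2_RA came from such cells given 1 µM all-trans RA for the last 48 hours of culture, and library shCtbp2_UT from untreated cells of the same line. They are 2 of 6 RNA-seq libraries. The others came from F9 cells with the control hairpin shGFP (shGFP_RA and shGFP_UT) and with a hairpin named shRxr (shRxr_RA and shRxr_UT), under the same 2 treatments. All cultures were kept on gelatin with 8% charcoal-stripped fetal calf serum, which is low in natural retinoids, in every group. Each group is 1 library, and the labels name no hairpin sequence, clone or replicate culture. Of 25904 genes in the deposited table, the 12332 with a mean of at least 20 normalised reads over the 6 libraries were compared, with no other choice of genes. A normalised read is 1 read per 10000000 reads counted in genes, and the libraries held 10103347 such reads (shCtbp2_RA), 12089782 (shCtbp2_UT) and 9955808 to 13322506 in the other lines.

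With 1 library on each side there is no spread between replicates, so genes are first described by size. A log2 change is log2(shCtbp2_RA + 10) minus log2(shCtbp2_UT + 10), which understates changes of low genes, and "higher" or "lower" genes are those at least 2-fold apart on that scale. Folds are ratios of normalised reads with 95% intervals from the exact binomial distribution of the reads (Clopper-Pearson), which cover counting error only. A test was possible only by borrowing a spread. A limma fit over all 6 libraries took as its error the difference between the shGFP and shRxr lines in RA response, moderated across genes, with Benjamini-Hochberg adjustment and a threshold of 0.05. "Rose" and "fell" are kept for genes past that test, which assumes that the shCtbp2 libraries vary like the others and cannot see a deviation of 1 shCtbp2 library.

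RA enters the nucleus, where it binds RA receptors (RAR) that sit on DNA as pairs with retinoid X receptors (RXR). Without RA the pair holds corepressors on its target genes, and with RA it exchanges them for coactivators. CtBP2 is a corepressor that joins DNA-bound repressors to histone-modifying enzymes. In F9 cells RA is known for inducing enzymes of its own breakdown, Hox genes and endoderm factors, and for lowering pluripotency genes. RAR and RXR bind direct repeats of a short half-site, and the classical RA response elements have 5 or 2 bases between the half-sites.

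The promoters of Cyp26a1, which encodes the main RA-degrading enzyme, and Rarb, which encodes RA receptor beta, are printed. Both were chosen because they were at least 8-fold higher in shCtbp2_RA and hold such a repeat with 5 bases between the half-sites. The sequences are the 120 bases before each gene's start in the RefSeq promoter table (GRCm38.p6), read 5′ to 3′ along the gene, with the half-sites in capitals.
Cyp26a1: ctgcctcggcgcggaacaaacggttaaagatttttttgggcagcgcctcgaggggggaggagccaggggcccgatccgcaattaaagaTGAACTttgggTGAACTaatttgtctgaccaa
Rarb: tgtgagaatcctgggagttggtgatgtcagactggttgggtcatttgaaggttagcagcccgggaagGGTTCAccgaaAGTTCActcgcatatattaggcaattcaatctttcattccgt
The Cyp26a1 promoter entry spans chr19:37697558-37697857 on the plus strand, and its repeat lies on the opposite strand, 32 to 16 bases before the start. The Rarb entry spans chr14:16575427-16575726 on the minus strand, and its repeat reads along the gene, 53 to 37 bases before the start. The motif searched was the half-site NGNTCA and a second copy in the same orientation after any 5 bases (both strands, 250 bases before to 50 after the start). It was found in 0.69% of the 8707 promoters of genes tested here, in 0.53% of the 1328 promoters of higher genes (0.93% for genes higher after the correction described below), in 0.67% of those of lower genes, and in 2 of the 11 promoters found for the direct RA targets listed below. Among the 64 promoters of genes at least 8-fold higher, 2 held it (3.12%), the same pair. With 2 bases between the half-sites, the motif was in 0.96% of the promoters of tested genes, in 1.05% of those of higher genes and in 1.04% of those of lower genes. It was in none of the 11, and in 1 of the 64 promoters of genes at least 8-fold higher (1.56%), that of Tinagl1 (log2 change 3.37). The shares in higher and lower genes lay near that of the tested genes. A match describes letters, not binding.

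The labelled knock-down was visible in both libraries. Ctbp2 (chr7:140179246-140316037, mm9) stood at 55.4 normalised reads in shCtbp2_RA and 210.1 in shCtbp2_UT, against 701 and 1811 in shGFP_RA and shGFP_UT and 1132 and 1632 in shRxr_RA and shRxr_UT. Both shCtbp2 levels lay below every other library, and the lower of the pair was the one with RA. Within the line Ctbp2 fell 3.79-fold with RA (2.83 to 5.16, limma adjusted p 0.022). Its paralog Ctbp1 stood at 2155 in shCtbp2_RA and 1127 in shCtbp2_UT and rose by 0.93 on the log2 scale (adjusted p 0.044), but its corrected value, defined below, was 0.21 (adjusted p 0.44). The markers of undifferentiated F9 cells that the labelled cell type calls for were present: Pou5f1, Sox2, Nanog and Zfp42 ran from 1598 to 26185 normalised reads in shCtbp2_RA and from 4616 to 18524 in shCtbp2_UT. Of 11 blood markers 9 were in the table and 3 passed the level filter. The summed level of the 9 was 863.1 in shCtbp2_RA and 1268.8 in shCtbp2_UT. Most of both sums came from Pecam1, with 718.6 in shCtbp2_RA and 1158 in shCtbp2_UT. The other genes past the filter were Cd68 (95.02 and 69.48 in the same order) and Itgam (28.7 and 33.91). The leukocyte marker Ptprc and the globin gene Hba-a1 were listed at 0 in both. Of 17 fibroblast and mesenchyme markers in the table, 10 passed the filter. The summed level of the 17 was 13474 in shCtbp2_RA and 12278 in shCtbp2_UT, and 8144 to 15187 over the 6 libraries. Of these markers Pdgfrb, Fbln1 and Snai1 rose (3.38, 2.14 and 1.68, the last not past the test after the correction described below) and Thy1 and Fn1 fell (-2.44 and -0.98), while the collagen Col3a1 and the matrix genes Dcn and Postn were at 0 in both shCtbp2 libraries. The part of such cells in the results below was not tested.

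The shCtbp2_RA library differed from the others in base composition, and this touches most results below. Its deviation from the mean of the 6 libraries increased with the GC content of a gene's transcripts across 12133 genes (Spearman 0.656), while the same value was 0.245 in shGFP_RA and -0.442 to -0.400 in the other 4 libraries. Among the 20% of genes with the highest GC content, 34.4% were higher in shCtbp2_RA and 2.27% lower. Among the 20% with the lowest, 1.48% were higher and 50.9% lower. The median log2 change was 0.76 and -1.02 in those groups, against 0.38 and -0.33 in the shGFP line. Corrected values, taken after subtracting from every library its own trend over GC content and transcript length, are therefore given beside many of the results. The correction removes any response to RA that follows GC content as well, so neither scale is taken as the true one, and whether the trend arose in the cells or in the library was not tested.

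**Figure D1:**
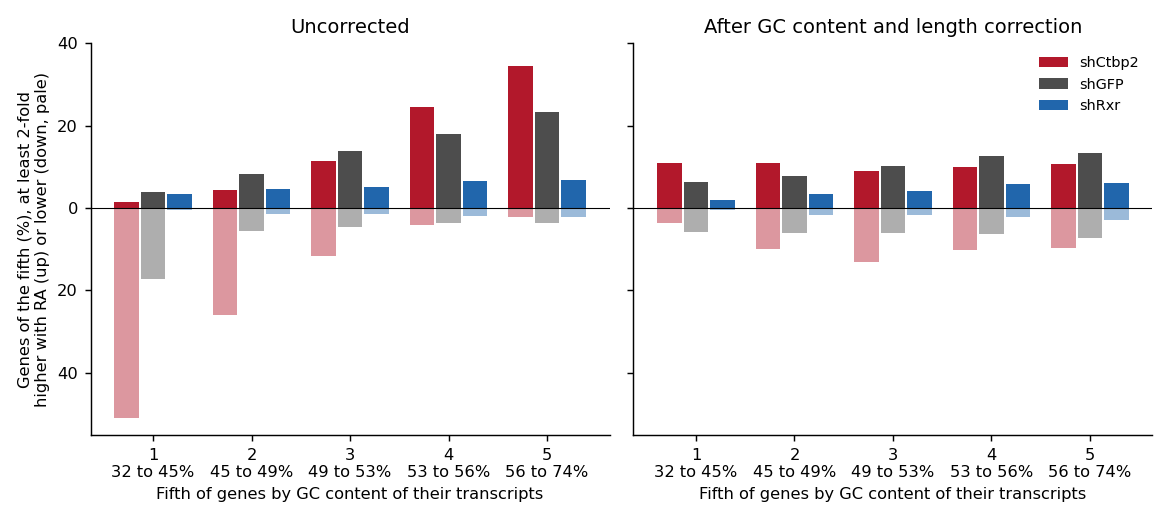
Share of genes at least 2-fold higher with RA (upward bars, percent) or lower (downward pale bars) in 5 equal groups of genes by transcript GC content, for the shCtbp2, shGFP and shRxr lines, before (left) and after (right) the correction for GC content and transcript length. In shCtbp2 the share of lower genes was 50.9% in the group with the lowest GC content and 2.27% in the highest before the correction, and 3.54% and 9.64% after it.

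In all, 1864 genes (15.1%) were higher and 2377 (19.3%) lower in shCtbp2_RA than in shCtbp2_UT. After the correction 1256 of 12133 (10.4%) were higher and 1123 (9.26%) lower. Of the higher genes 852 (45.7%) were also higher after the correction, and of the lower genes 738 (31.1%) were also lower, while 116 of the lower genes and none of the higher ones changed sign. At 4-fold the counts were 388 higher and 220 lower, and at 8-fold 107 and 30. By limma 1475 genes (12.0%) rose and 2000 (16.2%) fell with RA in shCtbp2. Scaling to equal upper quartiles gave 2052 and 1815 instead, the correction gave 791 and 903, and with no level filter, over 23886 genes, limma called none. Counts of list members below are read beside these shares of all genes tested. In a bulk library a lower level can mean fewer cells of a kind or less RNA per cell, and these cannot be told apart.

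**Figure D2:**
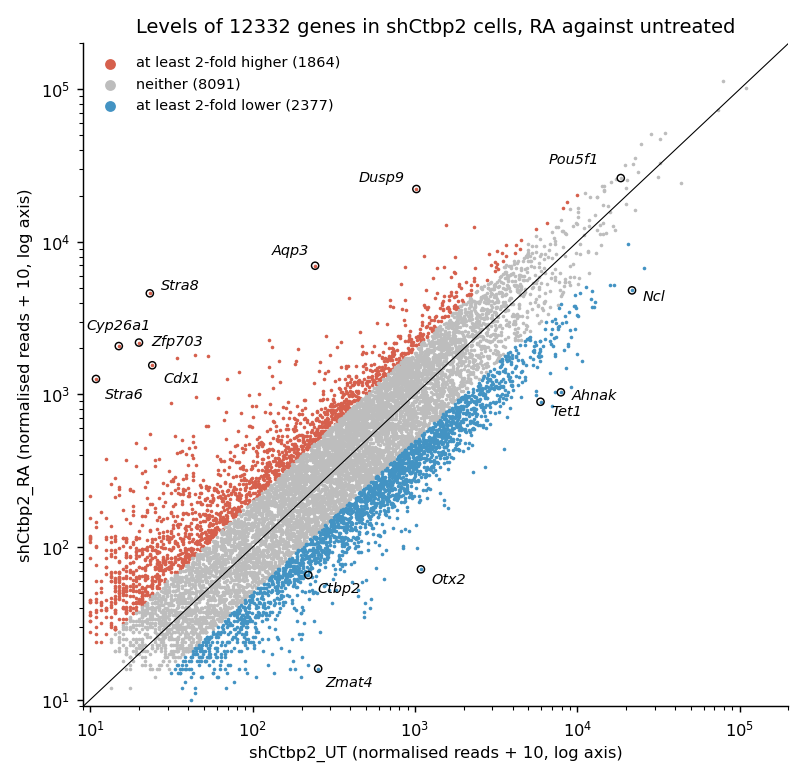
Level of each of 12332 genes in shCtbp2_RA (vertical, normalised reads + 10, log axis) against shCtbp2_UT (horizontal, same unit), with genes at least 2-fold higher in red, lower in blue and named genes circled. Stra8, Cyp26a1, Stra6, Zfp703 and Cdx1 form the upper left edge, with log2 changes of 6.01 to 7.63, and Zmat4 and Otx2 the lower edge, with -3.99 and -3.93.

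The strongest responders were classical RA targets, which had at most 14.1 normalised reads in shCtbp2_UT. Stra8, a gatekeeper of meiosis in germ cells (chr6:34870163-34889342, mm9), had 4587 normalised reads in shCtbp2_RA, against 13.2 in shCtbp2_UT. It rose 347-fold (213 to 607; limma adjusted p 0.019), with a log2 change of 7.63 and 7.53 after the correction. It had 6428 in shGFP_RA and 18.5 in shGFP_UT, and 4259 in shRxr_RA and 192 in shRxr_UT, so no RA library overlapped an untreated one. Stra6, the cell-surface receptor for vitamin A uptake (chr9:57911595-58001803), had 1252 in shCtbp2_RA, against 0.827 in shCtbp2_UT, which is 1 read. Its ratio of 1514 therefore has a wide counting interval, with a lower end of 271, and its log2 change was 6.87 (adjusted p 0.019). It had 748 in shGFP_RA and 6.44 in shGFP_UT, and 234 in shRxr_RA and 1.67 in shRxr_UT, which made shCtbp2_RA the highest library. Cdx1, a homeobox regulator of trunk and gut identity (chr18:61178516-61195853), had 1542 in shCtbp2_RA, against 14.1 in shCtbp2_UT, a rise of 109.7-fold (68.3 to 189; adjusted p 0.019), beside 999.8 in shGFP_RA and 12.9 in shGFP_UT, and 763 in shRxr_RA and 60.3 in shRxr_UT. All 3 stayed above 5 on the log2 scale after the correction.

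Among the 15 highest log2 changes of genes with a mean of at least 50, further members of the RA program stood beside genes outside it. Zfp703, a zinc finger repressor and RA target, had 2176 normalised reads in shCtbp2_RA, against 9.93 in shCtbp2_UT. Gpr124, an adhesion receptor that aids Wnt signalling, Ptges, which makes prostaglandin E2, and Mmp15, a membrane-bound matrix protease, rose by 5.67, 5.37 and 5.07 on the log2 scale. Aqp3, a water and glycerol channel, had 6963 in shCtbp2_RA, against 232 in shCtbp2_UT, and Cidea, a lipid droplet protein, 365 in shCtbp2_RA, against 2.48 in shCtbp2_UT. Mall, a membrane raft protein, the myelin gene Pmp22, Hoxa5 and Dusp9, a phosphatase of MAP kinases, were also in the set. Dusp9 had 22191 normalised reads in shCtbp2_RA, against 1009.9 in shCtbp2_UT, and was the only one of the 15 also among the 5 largest gains in level. All 15 passed limma (adjusted p 0.019 each) and passed it after the correction as well (0.026 to 0.034). They were picked by the change that limma tests, so passing is not read as support. All were at least 2-fold higher in the shGFP and shRxr lines too. Stra6, Cyp26a1, Mall, Pmp22 and Hoxa5 had under 20 normalised reads in every untreated library and passed the level filter only through the RA libraries.

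The 15 lowest changes included several developmental regulators. The lowest was that of Zmat4, a zinc finger gene, which had 5.94 normalised reads in shCtbp2_RA, against 243 in shCtbp2_UT (-3.99). Otx2, a homeobox factor of epiblast and forebrain, had 61.4 normalised reads in shCtbp2_RA, against 1078 in shCtbp2_UT, 17.6-fold lower (13.6 to 23.0). Evx1, a homeobox gene of the primitive streak, had 3.96 in shCtbp2_RA, against 189 in shCtbp2_UT. Mitf, the master factor of pigment cells, had 24.7 in shCtbp2_RA, against 476 in shCtbp2_UT, and Lefty2, a secreted Nodal inhibitor, 88.1 in shCtbp2_RA, against 1017 in shCtbp2_UT. These 4 fell by 3.39 to 3.93 on the log2 scale (limma adjusted p 0.019 each). The POU factor Pou4f2, the haematopoietic factor Myb, the epithelial factor Grhl2, the RNA sensor Ddx58, the inner ear matrix gene Coch, the calcium-binding Casq2, the long non-coding RNA Miat and Zfp459, Enox1 and Fam196b made up the rest, all past the test. Because the 15 were picked by the change that limma tests, passing it is not read as support. For the 14 with a known GC content the corrected log2 change lay between -4.67 and -2.65, so each was also low on that scale. All 15 were lower with RA in shGFP as well.

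Among the retinoid receptors and the genes that take up, carry or break down retinoids, 8 rose with RA, and the receptors differed among themselves. Of 22 listed, 17 passed the level filter, and 10 of these were higher and none lower. The filter favours induced genes: 5 of the 17 had under 20 normalised reads in every untreated library and passed it only through their level with RA, so such counts describe the genes that passed and are not read as support. The breakdown enzymes Cyp26a1 and Cyp26b1 rose by 7.11 and 4.32, and Cyp26a1 (chr19:37772298-37776018, mm9) had 2064 normalised reads in shCtbp2_RA and 4.96 in shCtbp2_UT. Cyp26b1 no longer passed after the correction (adjusted p 0.057). Dhrs3, which turns retinal back to retinol, rose by 3.49. Cyp26c1 (1.89, adjusted p 0.10) and Crabp2, which carries RA to its receptor (1.99, adjusted p 0.10), were higher but did not pass. Among the receptors, Rarb had 146 in shCtbp2_RA, against 2.48 in shCtbp2_UT (58.6-fold, 19.7 to 288), and rose. Rarg had 5818 in shCtbp2_RA, against 2285 in shCtbp2_UT, and Rxra 820.5 in shCtbp2_RA, against 372 in shCtbp2_UT, and both rose (adjusted p 0.019 and 0.045). Their corrected log2 changes were 0.37 and 0.40 and no longer passed (adjusted p 0.23 and 0.25). Rara, with 0.84, and Rxrb, with 0.71, did not pass, and Rxrg was below the filter at 10.9 in shCtbp2_RA and 6.62 in shCtbp2_UT. Of the RA-making dehydrogenases, Aldh1a2 had 22.8 in shCtbp2_RA, against 34.7 in shCtbp2_UT, Aldh1a3 8.91 in shCtbp2_RA, against 47.1 in shCtbp2_UT, and Aldh1a1 was at 0 in both.

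Of 20 genes known as direct RA targets, 19 passed the filter, 6 of them only through the RA libraries. Of the 19, 15 were higher and none lower in shCtbp2_RA, and 13 rose by limma, with and without the correction. Tgm2, tissue transglutaminase, rose by 3.09. Hoxb1 had 106 normalised reads in shCtbp2_RA and 0 reads in shCtbp2_UT, at least 42.7-fold higher against a floor of 3 reads in the untreated library. The list was not uniform. Meis2, a Hox cofactor, had 252 in shCtbp2_RA and 219 in shCtbp2_UT, against 716 in shGFP_RA and 112 in shGFP_UT, so its change was 0.20 in shCtbp2, 2.57 in shGFP and 1.85 in shRxr. Nrip1, a ligand-dependent corepressor that binds CtBP, gave 0.97, 2.38 and 2.15 in the same order and rose in shCtbp2 (adjusted p 0.041). Nr2f2, an orphan receptor of mesenchyme and veins, gave 0.77, 3.15 and 1.89, and the RA carrier Crabp2 1.99, 5.85 and 3.16. For these 4 genes the unadjusted limma p of the difference between shCtbp2 and the other lines was 0.0031, 0.0062, 0.042 and 0.044, and none passed after adjustment over all genes (0.16 to 0.21).

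**Figure D3:**
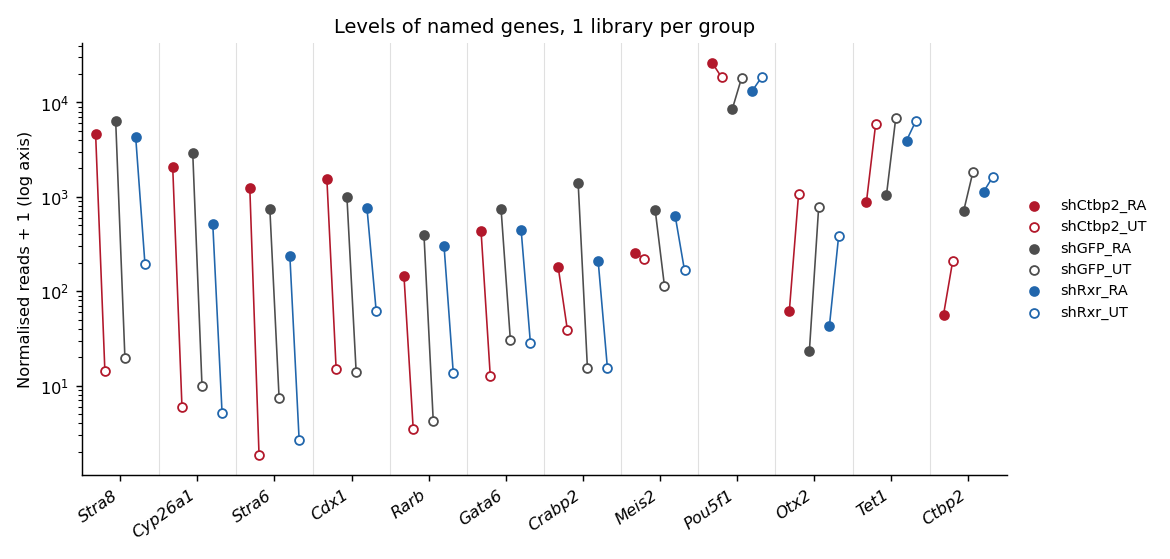
Normalised reads + 1 (log axis) of 12 named genes in the RA (filled) and untreated (open) library of each line, with 1 library per point and no error bars. Stra8, Cyp26a1 and Stra6 stood at 1252 to 4587 normalised reads in shCtbp2_RA and at 0.827 to 13.2 in shCtbp2_UT. Meis2 stood at 252 and 219 in the same libraries. The log2 change of Pou5f1 was 0.50 in shCtbp2 (-0.09 after the correction), -1.09 in shGFP and -0.47 in shRxr.

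Hox genes set position along the body axis. Of the 15 listed members of groups 1 to 5, 10 passed the level filter and 5 did not. Of the 10, 9 had under 20 normalised reads in every untreated library and passed through their level with RA, so that they were higher with RA follows from the filter. By limma 8 of the 10 rose, with and without the correction. Hoxa5 had 360.3 normalised reads in shCtbp2_RA, against 6.62 in shCtbp2_UT, and Hoxa3 209.8 in shCtbp2_RA, against 4.96 in shCtbp2_UT. Hoxb5 had 102 in shCtbp2_RA and no read in shCtbp2_UT, which puts it at least 41.1-fold higher, Hoxa2 at least 14.0-fold and Hoxb2 at least 10.4-fold. Of 24 genes of groups 6 to 13 only 9 passed the filter, 4 of them through the RA libraries alone, and 5 of the 9 rose, of which Hoxa7 alone also passed after the correction. Hoxb6 had 104 in shCtbp2_RA and 0 reads in shCtbp2_UT (at least 41.9-fold higher), and Hoxb13 134 in shCtbp2_RA, against 7.44 in shCtbp2_UT. Hoxd8 and Hoxd9 each had 43.8 normalised reads in shCtbp2_UT, against 1.61 and 2.42 in shGFP_UT. Of the 9 Hox cofactors Meis3 and Pbx2 rose (1.87 and 1.09, neither past the test after the correction), and Meis1 was higher without passing (1.95, adjusted p 0.053). Pknox1 gave 0.03 in shCtbp2, 0.01 in shGFP and -0.05 in shRxr.

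Primitive endoderm regulators, the factors that start extra-embryonic endoderm, were all measured. Of the 11, 2 passed the filter only through the RA libraries, 9 were higher and 1 lower, and by limma 7 rose and 1 fell. Gata6 had 436 normalised reads in shCtbp2_RA, against 11.6 in shCtbp2_UT, and Gata4 806 in shCtbp2_RA, against 149.7 in shCtbp2_UT. The forkhead factors Foxa1 and Foxa2 rose by 4.04 and 3.18, the endocytic adaptor Dab2 by 1.69 and Sox7 by 1.51. After the correction Foxa2 and Sox7 no longer passed (adjusted p 0.054 and 0.051). Sox17 (1.43) and the receptor Pdgfra (1.41) were higher but did not pass. Hnf4a, a factor of mature visceral endoderm and liver, fell by 1.76 on the log2 scale. Lrp2, the endocytic receptor megalin, had 393 in shCtbp2_RA and 454 in shCtbp2_UT, against 2963 and 668 in shGFP_RA and shGFP_UT. Its change of -0.20 in shCtbp2 stood beside 2.13 in shGFP and 1.36 in shRxr (unadjusted p of the difference 0.002, adjusted 0.16).

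Of the parietal endoderm list, the cells that lay down Reichert's basement membrane, 18 of 19 genes passed the filter, 2 of them only through the RA libraries. Of the 18, 11 were higher and 2 lower (6 higher after the correction), and 7 rose and 2 fell. Plat, tissue plasminogen activator, had 97.0 normalised reads in shCtbp2_RA, against 3.31 in shCtbp2_UT, and Serpinh1, the collagen chaperone, 6829 in shCtbp2_RA, against 859 in shCtbp2_UT. Both rose, as did Pth1r, the parathyroid hormone receptor (2.52). The collagen and laminin chains differed among themselves. Col4a2 rose by 2.17 and Lamb1 by 1.75, Lama1 rose by 1.23, Col4a1 was higher by 1.15 without passing (adjusted p 0.051), and Lamc1 had -0.81. In shGFP the same 5 gave 2.47, 1.87, 2.05, 2.21 and 0.58. The linker protein Nid1 fell by 1.30 in shCtbp2, where shGFP gave 0.12 and shRxr 0.06, and the activin inhibitor Fst fell by 2.08. Pth1r, Lama1 and Fst no longer passed after the correction (adjusted p 0.057, 0.073 and 0.072). Of the visceral endoderm list 6 of the 17 genes in the table passed the filter, Ihh only through the RA libraries. Of the 6, 3 were higher and 0 lower, beside 15.1% and 19.3% of all genes tested, and 3 and 1 after the correction. Hhex and Ihh rose (2.04 and 1.93), Ihh only without the correction. Amn had 150 in shCtbp2_RA, against 59.6 in shCtbp2_UT, and was higher by 1.21 (corrected 0.28) without passing limma. Cubn gave 0.34 without passing, and 1.70 after the correction, where it passed limma (adjusted p 0.049). The defining markers Afp, Alb and Cer1 were at 0 in both shCtbp2 libraries, and Ttr was at 0.990 in shCtbp2_RA and 0 in shCtbp2_UT.

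Of the pluripotency genes 9 fell, while Pou5f1 had a change of under 2-fold in shCtbp2, positive only before the correction. All 28 were measured, 12 were lower and none higher (median -0.76, corrected -0.74), beside 19.3% and 15.1% of all genes tested. Besides Otx2, the largest falls were in Lin28b, which blocks let-7 microRNAs (-2.04), Zfp42, also called Rex1 (-2.03), the orphan receptor Nr5a2 (-1.85), the methylation cofactor Dnmt3l (-1.77) and Sox2 (-1.52). Sox2 had 1598 normalised reads in shCtbp2_RA, against 4616 in shCtbp2_UT. After the correction 4 of the 9, Lin28a, Tfcp2l1, Dnmt3l and Otx2, still passed, with adjusted p of 0.026 to 0.049. Pou5f1, which encodes Oct4 (chr17:35642982-35647721, mm9), had 26185 normalised reads in shCtbp2_RA, against 18524 in shCtbp2_UT. It had 8529.9 in shGFP_RA and 18172 in shGFP_UT, and 13335 in shRxr_RA and 18536 in shRxr_UT, so shCtbp2_RA was the highest of the 6 libraries. Its log2 change of 0.50 did not pass the test (adjusted p 0.21), and the corrected change was -0.09. The naive factors Esrrb, Klf2 and Dppa5a also had positive changes in shCtbp2 (0.52, 0.65 and 0.78) and negative ones in shGFP (-0.84, -0.93 and -0.71), none past the test in shCtbp2. Dppa5a has close relatives and pseudogenes, so its reads are uncertain. The tests of the difference from the other lines gave unadjusted p of 0.009 for Pou5f1, 0.0036 for Klf2 and 0.0059 for Dppa5a, and none passed after adjustment.

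**Figure D4:**
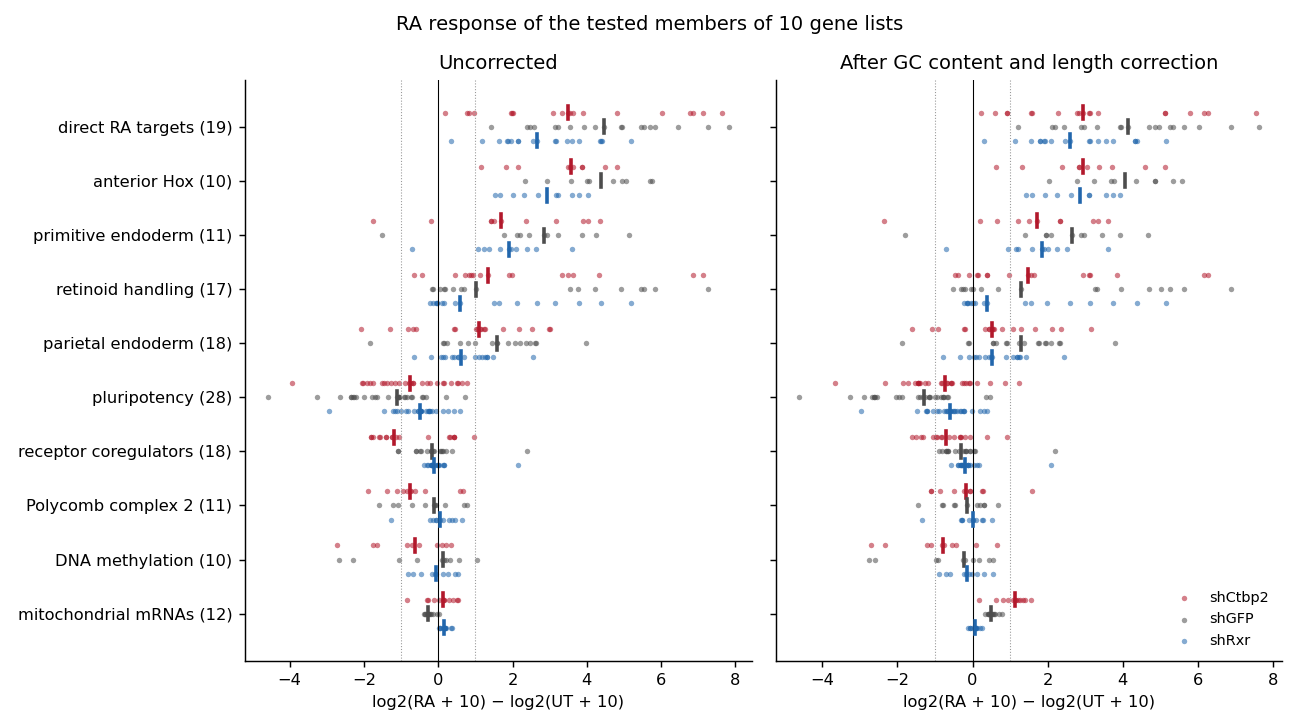
Log2 change with RA of the measured members (points) and their median (bars) in 10 gene lists, for shCtbp2, shGFP and shRxr, before (left) and after (right) the correction, with dotted lines at 2-fold and the number of members in brackets. Most anterior Hox genes shown passed the level filter only through the RA libraries. In shCtbp2 the medians of the pluripotency genes (-0.76 and -0.74) and coregulators (-1.19 and -0.72) were negative before and after the correction, while the medians of the Polycomb list (-0.77 and -0.17) and of the mitochondrial mRNAs (0.14 and 1.14) moved by 0.60 and more.

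Most receptor coregulators, the proteins that RAR and RXR exchange, fell in shCtbp2_RA. All 18 were measured, none was higher and 11 were lower (median -1.19, corrected -0.72, where 5 were lower). By limma 11 fell and 1, Nrip1, rose. Over all genes tested 15.1% were higher and 19.3% lower (9.26% lower after the correction), and 12.0% rose and 16.2% fell. The list has a median GC content of 49.71%, against 51.15% over all genes. The p160 coactivators Ncoa1 and Ncoa2 had 264 and 356 normalised reads in shCtbp2_RA, against 954 and 1225 in shCtbp2_UT. The acetyltransferase Ep300 had 981 in shCtbp2_RA, against 2608 in shCtbp2_UT. Its relative Crebbp fell by 1.41, the Mediator subunit Med1 by 1.26 and the corepressor Ncor1 by 1.58. These 6 also passed after the correction, with corrected changes of -1.61 to -0.96. In shGFP the same 6 ranged from -0.60 to -0.11. Tbl1x, a subunit of the NCoR complex, fell by 1.06, but its corrected change was -0.07, and Hdac3, Sin3b, Carm1 and Kat2a had positive uncorrected changes of 0.29 to 0.43 that did not pass. The unadjusted p of the difference from the other lines was 0.0025 to 0.0048 for Ncoa6, Ncoa2, Ep300, Crebbp, Med1 and Ncoa1, and adjusted over all genes none passed.

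In the chromatin complexes that work with CtBP the counts are read beside the 12.0% of all genes tested that rose and the 16.2% that fell. Of 16 measured CtBP complex members 2 rose and 4 fell. Hic1, a zinc finger repressor that recruits CtBP, rose by 2.72 (corrected adjusted p 0.11, not past the test). Hic1 passed the level filter only through the RA libraries. Hdac2 had 717 normalised reads in shCtbp2_RA, against 2706 in shCtbp2_UT, and fell by 1.90 (corrected -0.89), while its partner Hdac1 gave -0.14. Sall1 and Zfp217, repressors of transcription, fell by 1.43 and 1.03, and the demethylase Kdm1a gave 0.03. Of 13 NuRD subunits only Hdac2 and Gatad2b fell, and of 11 Polycomb repressive complex 2 genes Suz12, Eed, Jarid2 and Ezh2 fell (-1.90, -1.38, -1.11 and -0.96). The Polycomb list has a median GC content of 44.6%, against 51.1% over all genes, and after the correction only Jarid2 of the 4 passed (-1.10, adjusted p 0.036) while Ezh2 was at -0.06. Of 10 DNA methylation genes 4 fell and none rose. Tet1, a dioxygenase that oxidises methylcytosine, had 885 in shCtbp2_RA, against 5925 in shCtbp2_UT, and fell by 2.73, with a corrected change of -2.71 (adjusted p 0.051). The methyltransferase Dnmt3b fell by 0.84 in shCtbp2 and gave 0.15 in shGFP and 0.26 in shRxr.

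In the signalling lists, beside the same 12.0% and 16.2% of all genes tested, the counts of BMP, Nodal and FGF genes lay near the background and are no result about those lists. In the BMP list 3 of 15 measured genes rose and 3 fell: the ligands Bmp7 and Bmp6 rose by 2.46 and 2.17 and the inhibitory Smad6 by 2.42, while the target genes Id3 and Id4 fell by 1.91 and 2.70 and the receptor Bmpr1a by 1.19. In the Nodal list Inhbb, the activin beta B subunit, had 1877 normalised reads in shCtbp2_RA, against 466 in shCtbp2_UT, and rose by 1.99, where shGFP gave 0.08 and shRxr 0.55. Nodal also rose (0.82), while its co-receptor Tdgf1 was lower at -1.91 without passing (adjusted p 0.058) and its inhibitor Lefty2 fell. Of 12 measured Wnt genes 5 rose and none fell. Those that rose were the ligands Wnt3a, Wnt8a, Wnt5b and Wnt7b and the feedback inhibitor Nkd1, by 1.63 to 2.22. The pathway target Axin2 gave -0.76. Of the 12, 3 passed the level filter only through the RA libraries, Wnt8a and Wnt5b among them, so the count is not read as support. After the correction 4 of the 12 were at least 2-fold higher and 3 lower, beside 10.4% and 9.26% of all genes. In the FGF list Fgfr2 and the ETS factor Etv4 rose (2.76 and 1.35) and the ERK inhibitors Spry4 and Spred1 fell (-2.10 and -1.43), and Spred1 was at -0.18 after the correction. In the Hedgehog list 4 of 13 rose, with the co-receptors Gas1 (3.67) and Boc (2.09), the ligand Ihh and the transducer Smo (1.78). Of these Ihh passed the level filter only through the RA libraries. The target genes Gli1 and Ptch1 gave -0.14 and -0.46. In the Notch list Dll3 and Jag2 rose (1.48 and 1.35), Jag1 fell by 2.91, and after the correction none of the 10 measured was higher. After the correction Bmp7, Id3, Id4, Inhbb, Lefty2, Wnt3a, Fgfr2, Spry4, Boc, Smo and Jag1 of these genes passed, and the others did not.

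Among cell cycle and replication genes, the growth drivers Myc, Mycn, Ccnd1 and Cdk6 were lower with and without the correction. Of 30 measured, 2 rose and 8 fell, beside 12.0% and 16.2% of all genes tested. After the correction 2 were at least 2-fold higher and 4 lower, beside 10.4% and 9.26% of all genes. Myc and Mycn fell by 1.52 and 1.76, the cyclin Ccnd1 by 1.23 and the kinase Cdk6 by 2.05, and all 4 had corrected changes of -2.82 to -1.93. Ccne1, cyclin E1, rose by 1.46, with 1717 normalised reads in shCtbp2_RA, against 619 in shCtbp2_UT, where shGFP gave -0.03 and shRxr -0.17. Top2a, Mki67, Mcm4 and Ccnb1 fell, but their corrected changes lay between -0.62 and -0.03. Among 17 measured inhibitors and p53 targets 6 rose and 2 fell, beside the same shares of all genes. The rises were led by the stress gene Gadd45b (2.84), the inhibitors Cdkn2c (1.84) and Cdkn2a (1.52) and Sesn1 (1.45), while Cdkn1a gave 0.64. Of the 17, 2 passed the level filter only through the RA libraries, Cdkn2c among them. After the correction 3 of the 17 were at least 2-fold higher and 3 lower. Cdkn2a did not pass after the correction (adjusted p 0.18). In the Bcl2 family the pro-apoptotic Bad and Bak1 rose by 1.98 and 1.60 and the anti-apoptotic Bcl2l1 by 1.71, and Pmaip1 (Noxa) fell by 2.18. After the correction Bcl2l1 and Pmaip1 no longer passed (adjusted p 0.057 and 0.082).

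The shCtbp2 response was then set beside those of shGFP and shRxr, all on the same genes. Of the 1864 genes higher in shCtbp2, 1128 were also higher in shGFP (60.5% of the shCtbp2 list and 68.4% of the shGFP list) and 476 in shRxr (25.5% and 73.3%). Over all genes tested 13.4% were higher in shGFP and 5.26% in shRxr. Of the 2377 lower genes, 660 were also lower in shGFP (27.8% and 75.7%) and 122 in shRxr (5.13% and 67.8%), where 7.07% and 1.46% of all genes tested were lower in those lines. Higher in shCtbp2 and in neither other line were 724 genes (38.8%), and lower in shCtbp2 and in neither other line 1710 (71.9%), while 86.1% and 92.7% of all genes tested were not higher or not lower in either of them. After the correction those shares were 36.9% and 58.4%, beside 89.5% and 93.6% of all genes. Of the genes higher in shCtbp2, 1 was lower in shGFP and none in shRxr, and of the lower ones 7 were higher in shGFP and 4 in shRxr. These counts compare sizes in single libraries. The limma test of the difference between the shCtbp2 response and the mean of the other lines called 0 of 12332 genes (0.0%) in either direction. There were 2854 genes at an unadjusted p under 0.05, and limma voom on the recovered reads also called 0, with 2695. The smallest adjusted p was 0.159.

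The genes that stood farthest from the other lines are therefore given as descriptions. On the positive side Tlx2, a homeobox gene of neural crest and enteric neurons, had 250.4 normalised reads in shCtbp2_RA, against 3.31 in shCtbp2_UT, while RA left it at 15.8 in shGFP_RA and 20.1 in shRxr_RA. Its change was 4.29 in shCtbp2 (corrected 3.30), 1.05 in shGFP and 0.47 in shRxr, and its transcripts have a GC content of 68.6%. Tlx2 passed the level filter, and the mean of at least 50 asked of this set, only through shCtbp2_RA. Its distance from the other lines is therefore not read as support. Cndp2, a cytosolic dipeptidase, had 7951 in shCtbp2_RA, against 1755 in shCtbp2_UT, and changes of 2.17, 1.27 and -0.73. Mylpf, a muscle myosin light chain, gave 1.48, -1.04 and -0.17. Dusp9, the cytoskeletal linker Obsl1, Cidea, the calmodulin kinase Camk1, the tubulin Tuba3a, which has a near-identical copy and is uncertain, the RIKEN gene E130309D14Rik and Stra6 completed the 10, with differences of 1.91 to 2.45. All 10 passed the test of the RA response itself in shCtbp2, and 8 did so after the correction, Cndp2 and Mylpf being the exceptions. The 10 were picked by a value that holds the same response, so passing is not read as support.

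On the negative side 5 of the 10 genes had a negative change in shCtbp2 and a positive one in both other lines. Peg3, a paternally expressed zinc finger gene, had 317 normalised reads in shCtbp2_RA, against 969 in shCtbp2_UT, and 2393 in shGFP_RA, against 1309 in shGFP_UT. Prdm1 (Blimp1), a repressor that directs germ cell fate, had 47.5 in shCtbp2_RA, against 216 in shCtbp2_UT, and 191 in shGFP_RA, against 123 in shGFP_UT. Sox6 gave -1.38 in shCtbp2, 0.89 in shGFP and 0.96 in shRxr, and the phosphatase Ptpn13 -1.34, 1.14 and 0.78. Prickle2, a planar polarity protein, gave -2.19, 0.18 and 0.12. Ahnak, Dst, Mitf and Crabp2 had 1 sign in all 3 lines and differed in size. Ahnak, a giant scaffold protein, had 1022 in shCtbp2_RA, against 7912 in shCtbp2_UT, and Dst, which links filaments to junctions, 1103 in shCtbp2_RA, against 9088 in shCtbp2_UT. Fry was the last of the 10, with -1.80, 1.23 and -0.13. Corrected changes of the 10 in shCtbp2 ran from -3.63 to 1.56, with the same signs as the uncorrected ones.

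**Figure D5:**
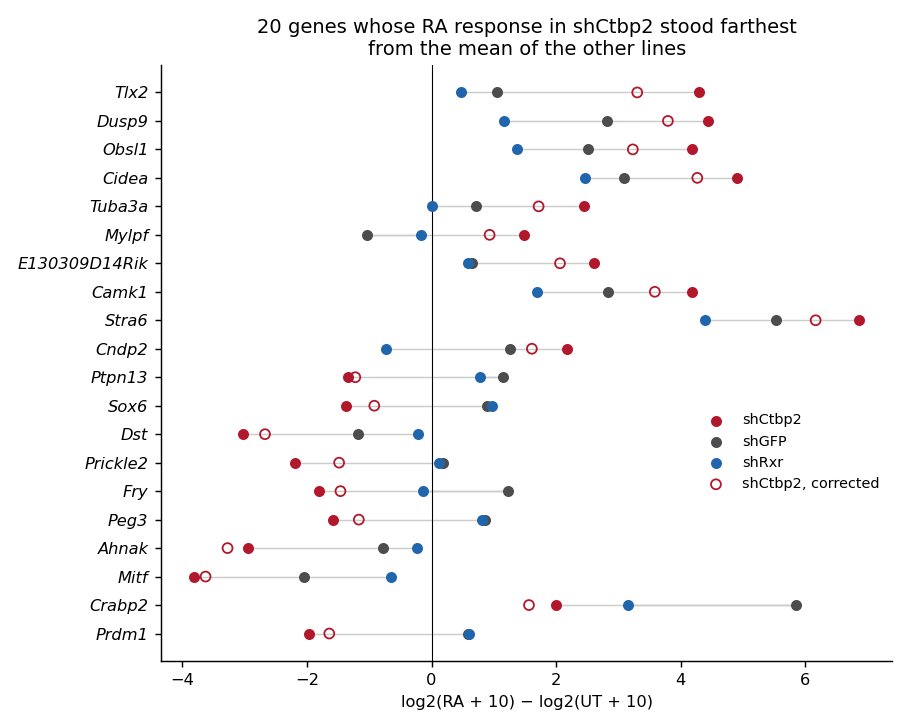
Log2 change with RA in shCtbp2 (red), shGFP (grey) and shRxr (blue) for the 20 genes whose shCtbp2 response stood farthest from the mean of the other lines, with corrected shCtbp2 values as open circles. Tlx2 lies farthest on the positive side, at 4.29 in shCtbp2 against 1.05 in shGFP, and passed the level filter only through shCtbp2_RA. Prdm1 lies farthest on the negative side, at -1.97 against 0.59. No difference passed the limma test after adjustment.

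By level, the largest gains and losses were in abundant genes. Eef2, a translation elongation factor, had 113199 normalised reads in shCtbp2_RA, against 78538 in shCtbp2_UT, followed by Tubb5, Dusp9, Atp5b and Gnb2l1. Of these Dusp9 and Atp5b (0.82) passed limma, and Eef2 had a corrected change of -0.20. The nucleolar proteins Ncl and Npm1, the ubiquitin ligases Huwe1 and Nedd4 and the mitochondrial transcript mt-Co1 lost most. Ncl had 4798 in shCtbp2_RA, against 21723 in shCtbp2_UT, and fell by 2.18 (corrected -1.23), and Huwe1 fell by 1.93 (corrected -1.22). Npm1 fell by 1.68 but gave -0.62 after the correction (adjusted p 0.083), and mt-Co1, a GC-poor gene, gave -0.85 before and 0.17 after it.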

How the data were processed

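RNA was sequenced from 6 F9 libraries. Per the submitters' processing notes, the authors used TopHat 1.4 on mm9, then HTSeq; no source used here gives the counting mode, the strand setting or the annotation release. The deposited values are log2 of reads scaled to 10000000 gene reads, plus 1. They were turned back to a linear scale, and whole reads were recovered for 100% of values within 1e-06. The 25 gene symbols that a spreadsheet had turned into dates were restored, and 145 symbols stand for several gene IDs.

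Genes averaging 20 or more across the libraries were kept, and log2 changes used a pseudocount of 10. With 1 library a group, the RA response and its difference from the other lines were fitted with limma 3.58.1 (R 4.3.3, mean-variance trend) on all 6 libraries, with 1 residual degree of freedom and a prior of 5.71. The fit was tried on simulated reads with no difference between lines, no RA response in shGFP or shRxr and no GC trend. Such reads differ from the data in these points, so that trial cannot speak for the calls made here. The limma p-values rest on the difference between the shGFP and shRxr lines in RA response. That difference may hold real differences between these lines as well as technical spread between single libraries. The correction subtracted each library's running trend over transcript GC content and then length, in 40 bins, from GENCODE M21 transcripts for 12133 of 12332 genes (98.4%). Promoters came from RefSeq, matched by symbol. Depth ran from 9955808 to 13322506 reads, so the 3-read floor lay at 2.25 to 3.01 normalised reads, and intervals cover counting error only.

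Named genes were the 4 markers Stra8, Stra6, Cdx1 and Pou5f1, the hairpin targets and their relatives, the 15 highest and 15 lowest log2 changes at a mean of at least 50, the 10 largest differences from the other lines each way, the 5 largest level changes each way, and from each gene list the members with the largest changes or a textbook role. The genes and lists were chosen with earlier results of these data known. Alternatives were other pseudocounts, level filters, scalings (upper quartile, median of ratios), the counting interval, the correction and limma voom on recovered reads. Results of some genes are not reported here.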

Additional observations from a re-analysis of the deposited data

How the results depend on the processing

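The count of 1864 higher genes became 1144 with a pseudocount of 50 and 1214 with a mean of at least 100, which tests fewer genes. The count of 2377 lower genes became 1123 with GC content and length corrected. By limma, 1475 genes rose and 2000 fell. Without a level filter limma called 0 in each direction over 23886 genes, with 5038 at an unadjusted p under 0.05, and after the correction it called 791 and 903. Every other alternative kept these counts within 1.5 times. Upper-quartile scaling moved the median log2 change of all genes to 0.17, against 0.07, and the higher share of limma calls to 53.1%, against 42.5%. No named gene or list median with a log2 change of at least 1 in size changed sign in the settings run. Some smaller changes did so under the correction, such as those of Pou5f1 (0.50 to -0.09), Rxrb (0.71 to -0.09), Eef2 (0.53 to -0.20) and mt-Co1 (-0.85 to 0.17). No list median moved under upper-quartile or median-of-ratios scaling. The correction moved 140 named genes and 9 of 48 list medians by more than the counting interval (genes) or 1.5-fold (lists), and a pseudocount of 50 moved 88 and 3. The cause was not tested. No paired analysis was possible because each group is 1 library and the labels carry no replicate numbers, and no replicate could be left out. Genes at a few reads in shCtbp2_UT, such as Stra6 and Rarb, have wide fold intervals.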

Other observations

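Of 21 imprinted genes measured, 6 were higher and 6 lower, beside 8 and 2 in shGFP, and beside 15.1% and 19.3% of all genes tested in shCtbp2. After the correction 5 and 6 of the 19 with a known GC content were. The growth factor Igf2 had 144 normalised reads in shCtbp2_RA, against 19.9 in shCtbp2_UT, and rose, as did Dlk1, a Notch-like surface protein (2.77), Ndn (1.96) and Plagl1 (1.81). H19, a long non-coding RNA, had no read in shCtbp2_UT and was at least 11.2-fold higher. H19 rose too (limma adjusted p 0.034), but it passed the level filter only through the RA libraries. Peg10 fell by 1.68, where shGFP gave 0.51 and shRxr 0.40, and Nnat and Impact fell by 1.68 and 1.89. In axon guidance, 6 of 27 rose and 4 fell, beside 12.0% and 16.2% of all genes tested. Of the 27, 2 passed the level filter only through the RA libraries. Efnb1 was at 3.02, Nrp1 at 2.55, Nrp2 at -1.93 and Epha4 at -1.78, where Epha4 gave -0.04 in shGFP. Of 10 germline genes Stra8 and the meiotic cohesin Rec8 (2.37) rose, and the synaptonemal gene Sycp1 gave -1.31. Of the genes that rose here, Dlk1, Plagl1, H19 and Rec8 no longer passed limma after the correction, with adjusted p of 0.086, 0.091, 0.096 and 0.075.

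The values of several large gene groups moved with the correction. The 12 mitochondrial mRNAs, with a median GC content of 36.6%, had a median change of 0.14 and none higher, and 1.14 with 8 higher after the correction. Of 318 zinc finger genes (Zfp) 23 were higher and 115 lower, and 11 and 43 of the 309 with a known GC content after it. Over all genes tested 15.1% were higher and 19.3% lower, and 10.4% and 9.26% after it. Of 81 nuclear respiratory chain genes 25 rose and 1 fell, where 12.0% and 16.2% of all genes tested did. Their median was 0.71, and 0.44 corrected, beside 0.21 in shGFP. The 80 ribosomal protein genes had a median of 0.42, and 0.09 after the correction, and many have processed pseudogenes, so their reads are uncertain. In glycolysis Pdk1 and Bnip3 fell (-1.95 and -2.27), while the median was -0.10, and -0.59 corrected, beside -0.83 in shGFP. Among epithelial genes the desmosomal cadherin Dsc2 rose by 2.67 and the factors Grhl2 and Esrp1 fell by 3.41 and 3.09. Of the 82 lincRNA genes with a known GC content 4.88% were higher and 28.0% lower, and 9.76% and 23.2% after the correction, beside 15.1% and 19.3% of all genes before it and 10.4% and 9.26% after. Whether the correction or the uncorrected values stand nearer the cells was not tested.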
